A study of Caenorhabditis elegans with 14 samples.

Results

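RNAi of skn-1 without heat shock was set against RNAi of hsf-1 with heat shock in worms of reduced insulin/IGF-1-like signaling (rIIS). Of the 14 libraries of the series, 4 enter this comparison, 2 labelled rIIS;skn-1i (skn-1i below) and 2 labelled rIIS;hsf-1i (HS) (hsf-1i (HS) below). All of them carry rrf-3(pk1426), which makes worms hypersensitive to RNAi, and daf-2(e1368), a class 1 allele of the insulin receptor gene. Whole Caenorhabditis elegans were fed bacteria making the double-stranded RNA from the first larval stage and grew at 20 °C. The study gives the harvest as L4 to young adult in its results and as young adult to gravid in its methods. The hsf-1i (HS) animals were also held at 33 °C for 2 h before harvest, and the skn-1i animals were not. RNAi target and heat shock therefore change together, and a difference between these 2 groups cannot be told apart as an effect of one or the other. The same strain on empty vector gives 2 further libraries without heat shock (rIIS-C) and 2 with it (rIIS-C (HS)). They allow a second contrast, called heat-offset here, in which skn-1i minus rIIS-C is compared with hsf-1i (HS) minus rIIS-C (HS). This takes off what the heat shock label goes with on empty vector, but not a heat response that hsf-1 RNAi itself alters. The main tests come from a fit of 12 libraries. It also holds 2 of the rrf-3(pk1426) control on empty vector (C) and 2 of daf-16 RNAi in the rIIS strain. Neither of these groups was heat-shocked. Each library holds exon reads for 46856 genes, of which 13892 had enough reads to be tested.

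HSF-1 is the transcription factor that binds heat shock elements and switches on chaperone genes when proteins misfold, and in worms it also acts in development and in the long life of daf-2 mutants. SKN-1 is the worm counterpart of the Nrf factors, which turn on glutathione synthesis and conjugation genes under oxidative stress. In the early embryo SKN-1 also specifies the cells that give rise to the intestine and part of the mesoderm. Both factors are held in check when insulin signaling is strong, together with the FOXO factor DAF-16.

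Exon reads numbered 6331130 and 12005877 in skn-1i replicates 1 and 2, and 11144232 and 8763366 in hsf-1i (HS) replicates 1 and 2. Introns took 12.75% of the reads and ribosomal RNA genes 9.8% of the gene reads in skn-1i replicate 2, against 3.11% to 4.84% and 0.54% to 2.05% in the other 3 libraries of the comparison. Reads crossing exon junctions made up 9.39% and 9.49% of exon reads in 1 library of each group, and 22.57% and 23.56% in the other, so this technical split is balanced between the groups. The mark expected of a heat shock was looked for first. The small heat shock protein gene hsp-16.2 read 8.1 and 8.16 CPM (exon reads scaled to the size of the library) in the rrf-3 control C and 2820 and 2310 in its heat-shocked counterpart C (HS), on a common scale over all 14 libraries. On that scale it read 31.7 and 54.7 CPM in rIIS-C but only 22.2 and 12 in rIIS-C (HS). Of 16 heat-inducible chaperones tested, 1 was higher and 4 were lower with the heat shock label on empty vector, against 6.56% and 3.63% of all genes. The heat-shocked libraries of the daf-2 strain thus do not carry the chaperone mark that the label HS goes with in C. The labels are used as given. Below, CPM are scaled over the 12 libraries without C (HS), every value in pairs is given for replicates 1 and 2, and n = 2 libraries in every group. The study calls them biological replicates. Changes are log2 fold changes ± their standard error, from edgeR's quasi-likelihood test, and a gene is called at a Benjamini-Hochberg adjusted p under 0.05. In whole animals, fewer cells of a type and less RNA per cell cannot be told apart.

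Each target was lowest under its own RNAi. Reads of hsf-1 (chromosome I, 11953797 to 11961962, WBcel235) stood at 14.6 and 14.9 CPM in hsf-1i (HS) and at 61.5 and 51.8 in skn-1i, with 36.6 and 45 in rIIS-C (HS) and 77.3 and 56 in rIIS-C. The groups did not overlap, and skn-1i was higher by 1.94 on the log2 scale (± 0.19, adjusted p = 0.000162 in edgeR). Reads of skn-1 (chromosome IV, 5651764 to 5660384) stood at 28.1 and 27.1 CPM in skn-1i and at 84.2 and 94.6 in hsf-1i (HS), against 164 and 110 in rIIS-C. Here skn-1i was the lower group, at a log2 fold change of −1.70 ± 0.20 (adjusted p = 0.000445 in edgeR). Both differences also passed in the heat-offset contrast, at 1.23 for hsf-1 (adjusted p = 0.0128 in edgeR) and −1.94 for skn-1 (adjusted p = 0.00198 in edgeR). The third factor, daf-16, read 120 and 82.2 CPM in skn-1i and 79.2 and 84.1 in hsf-1i (HS), and its log2 fold change of 0.31 ± 0.26 did not pass (adjusted p = 0.416 in edgeR).

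The profiles of both groups were closer to each other than to their own empty vectors, and the genes called between them were a minority. Between single libraries of skn-1i and hsf-1i (HS) the Spearman correlation of log2 CPM across genes ran from 0.947 to 0.956, against 0.981 within skn-1i and 0.987 within hsf-1i (HS). The skn-1i libraries correlated with rIIS-C at 0.859 to 0.896, and the hsf-1i (HS) libraries with rIIS-C (HS) at 0.920 to 0.939. Other pairs of groups were as close or closer, such as rIIS-C with rIIS-C (HS) at 0.951 to 0.971. These are descriptions across genes, which are not independent replicates. In all, 1256 genes were higher in skn-1i (9.04% of the genes tested) and 1919 were lower (13.8%), while 80.6% of genes lay within 1 log2 unit. The largest differences were mostly on the lower side: 421 called genes were lower by over 2 log2 units and 61 were higher by as much, with a median over all genes of −0.08. At the thresholds of the study, a fold change of 1.5 or more with p up to 0.05 before adjustment, 1480 genes were higher (10.7%) and 2504 lower (18%). The higher side held 39.6% of the calls, and this share depended on the fit: it was 49.7% with only the 4 libraries compared, 29.2% with all 14, 51.4% with the trend over exon length removed and 54.5% with limma on the authors' RPKM. With the replicate numbers of the study's library sheet as a block, 1987 genes were called higher and 2671 lower, and fits of all 12 libraries bar 1 of the 4 compared left 465 to 718 higher and 784 to 1030 lower, each of these 4 libraries lowering both counts by more than 1.5 times.

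**Figure D1:**
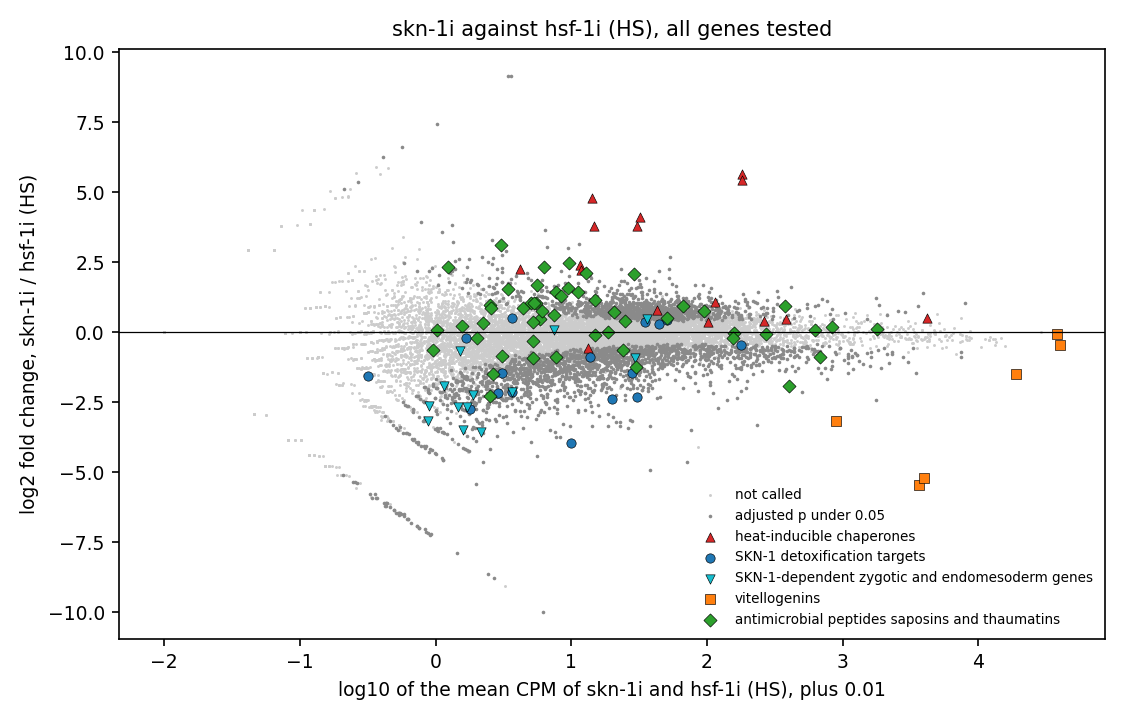
Log2 fold change of skn-1i over hsf-1i (HS) for each of the 13892 genes tested (vertical axis) against the log10 of the mean CPM of both groups plus 0.01 (horizontal axis), with 5 gene lists in colour and called genes in dark grey. Most heat-inducible chaperones lie above 0, most SKN-1 targets lie below it, and vit-3 and vit-4 are among the lowest points at a high level.

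Against their own empty vector, both RNAi groups were far from the control and mostly in the same direction. In skn-1i 3564 genes were higher than in rIIS-C (25.7%) and 4247 were lower (30.6%). In hsf-1i (HS) 2611 genes were higher than in rIIS-C (HS) (18.8%) and 2683 were lower (19.3%). These contrasts share no library, and 4253 genes were called in both, 4127 of them (97%) in the same direction. Of those 4127, 3174 (76.9%) were not called between skn-1i and hsf-1i (HS). A missed call does not show that the levels were equal. Of 81 cytosolic ribosomal protein genes, 78 were higher in skn-1i than in rIIS-C and 77 in hsf-1i (HS) than in rIIS-C (HS). Their medians were 2.04 and 1.64, and only 2 were higher and 1 was lower in skn-1i than in hsf-1i (HS). Both vector contrasts also followed exon length. From the eighth of genes with the shortest exons (median 327 bp) to that with the longest (3240 bp), medians ran from 0.52 to −0.64 in skn-1i. In hsf-1i (HS) they ran from 0.37 to −0.42. The part of exon length in the shared direction was not tested.

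The heat shock label on empty vector went with fewer changes, 911 genes higher (6.56%) and 504 lower (3.63%) in rIIS-C (HS) than in rIIS-C. That contrast shares no library with skn-1i against hsf-1i (HS). Among the genes higher in rIIS-C (HS), 305 were lower in skn-1i than in hsf-1i (HS), which is 33.5% of the former and 15.9% of the latter list, and 71 were higher (7.79% and 5.65%). Among the genes lower in rIIS-C (HS), 73 were higher in skn-1i (14.5% and 5.81%) and 86 were lower (17.1% and 4.48%). The log2 fold change between the RNAi groups is the sum of 3 terms, the response of each group against its own vector and the heat shock term. The heat shock term was the largest of them in 97 of the 1256 genes higher in skn-1i and in 257 of the 1919 lower ones. In the heat-offset contrast 684 genes were higher (4.92%) and 1045 lower (7.52%), with a median of −0.06. It shares libraries with the direct comparison, so its values are set side by side with those below and not counted as a second line of evidence. Its counts grew to 1253 and 1701 with the block, to 1188 and 1507 without rIIS-C replicate 1, and fell to 304 and 381 without skn-1i replicate 2, 312 and 392 without hsf-1i (HS) replicate 1 and 360 and 436 without hsf-1i (HS) replicate 2.

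Heat-inducible chaperones were the group most clearly higher in skn-1i. Of 16 tested, 10 were higher and 0 lower (62.5%, against 9.04% of all genes higher), with a median of 2.24. These 10 count near-identical copies, which share reads, as separate genes. With copies summed, 7 were higher, and 5 in the heat-offset contrast. Against the empty vector the list looked different: 3 of 16 were higher and 7 lower in skn-1i than in rIIS-C, at a median of −0.81. Over all genes 25.7% were higher and 30.6% lower there. In hsf-1i (HS) 12 were lower than in rIIS-C (HS), against 19.3% of all genes, at a median of −3.64. The 2 neighbouring genes F44E5.4 (chromosome II, 11757212 to 11759258) and F44E5.5 (11759705 to 11761751) encode Hsp70 proteins and are near-identical copies, so their reads were also summed. F44E5.4 alone read 388 and 326 CPM in skn-1i and 7.59 and 6.62 in hsf-1i (HS), with 442 and 488 in rIIS-C and 143 and 130 in rIIS-C (HS). Both skn-1i libraries thus stood near the unshocked control while both hsf-1i (HS) libraries lay far below their heat-shocked control. The log2 fold change of the sum between the RNAi groups was 5.54 ± 0.19 (adjusted p = 6.69e-08 in edgeR), and 3.82 ± 0.23 in the heat-offset contrast (adjusted p = 1.35e-05 in edgeR).

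The small heat shock proteins of the hsp-16 family, which hold unfolded proteins in solution were also higher in skn-1i than in hsf-1i (HS). For hsp-16.2 (chromosome V, 1804441 to 1804924) the values were 22.8 and 31.6 CPM in skn-1i and 0.573 and 1.47 in hsf-1i (HS), with 33.9 and 58.6 in rIIS-C and 23.7 and 12.9 in rIIS-C (HS). The copies hsp-16.1 and hsp-16.11 summed to 96.6 and 140 CPM in skn-1i and 6.02 and 9.38 in hsf-1i (HS), with 173 and 419 in rIIS-C and 182 and 102 in rIIS-C (HS). For hsp-16.48 with hsp-16.49 the sums were 32.6 and 44.7 against 7.31 and 8.65 CPM, both below the 117 to 452 CPM of the controls. Against rIIS-C, skn-1i was lower for hsp-16.1 with hsp-16.11 (log2 fold change −1.32 ± 0.38, adjusted p = 0.0119 in edgeR) and for hsp-16.48 with hsp-16.49 (log2 fold change −2.92 ± 0.45, adjusted p = 0.000229 in edgeR). The skn-1i and hsf-1i (HS) libraries did not overlap for any of these genes, and the log2 fold changes were 4.8 ± 0.49 for hsp-16.2 (adjusted p = 0.000193 in edgeR), 3.96 ± 0.46 for hsp-16.1 with hsp-16.11 (adjusted p = 0.000362 in edgeR) and 2.29 ± 0.49 for hsp-16.48 with hsp-16.49 (adjusted p = 0.00812 in edgeR). Taken singly, hsp-16.48 and hsp-16.49 did not keep the call without hsf-1i (HS) replicate 1, hsf-1i (HS) replicate 2 or skn-1i replicate 2 (log2 fold changes 1.95 to 2.54). Nor did hsp-16.11 without hsf-1i (HS) replicate 1 or 2 (4.02 and 4.31). The inducible Hsp70 gene hsp-70 (chromosome I, 9320412 to 9322481) read 21.3 and 33.5 CPM in skn-1i and 1 and 3.13 in hsf-1i (HS). Only 7.6% of its exon reads were placed at 1 position. Its log2 fold change was 3.81 ± 0.45 (adjusted p = 0.000371 in edgeR), and 2.21 ± 0.56 in the heat-offset contrast (adjusted p = 0.0267 in edgeR). The latter call was not kept without hsf-1i (HS) replicate 1 (1.59), rIIS-C (HS) replicate 1 (1.91) or skn-1i replicate 2 (1.83). F11F1.1 had 7.18 and 6.02 CPM of reads placed at 1 position in skn-1i and 6.73 and 4.97 in hsf-1i (HS). Summed with it, the log2 fold change was 2.12 ± 0.26 (adjusted p = 0.000536 in edgeR). The heat-offset value of that sum, 0.85, did not pass (adjusted p = 0.133 in edgeR). The heat-offset values were 3.47 for hsp-16.2 (adjusted p = 0.0058 in edgeR, and 0.0506 without hsf-1i (HS) replicate 1), 2.90 for hsp-16.1 with hsp-16.11 (adjusted p = 0.0103 in edgeR) and 1.26 for hsp-16.48 with hsp-16.49 (adjusted p = 0.227 in edgeR).

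The remaining chaperones of this list, described after their values were seen, differed less. The Hsp40 gene dnj-13 read up to 161 CPM in skn-1i and 73.5 and 75.1 in hsf-1i (HS), a log2 fold change of 1.07 ± 0.14 (adjusted p = 0.000545 in edgeR). The skn-1i libraries were close to the controls, which ran from 142 to 160 CPM. The arsenite-inducible gene aip-1 read 49.6 and 59.6 against 31.1 and 31.6 CPM (log2 fold change 0.80, adjusted p = 0.00729 in edgeR, and 0.0542 to 0.0619 without hsf-1i (HS) replicate 1, hsf-1i (HS) replicate 2 or skn-1i replicate 2). The Hsp90 gene hsp-90 read 5072 and 4704 against 3438 and 3481 CPM and just missed the threshold (log2 fold change 0.50, adjusted p = 0.0536 in edgeR). With hsp-110, dnj-12, hsp-43 and hsp-16.41 it was among the 5 members that were called higher once the library sheet's numbers were a block, which gave 15 of 16. The exception, stip-1, whose protein resembles a tuftelin-interacting splicing factor, read 10.2 and 11.2 CPM in skn-1i and 11.9 and 19.9 in hsf-1i (HS), below both controls. Counted without hsf-1i (HS) replicate 1, hsf-1i (HS) replicate 2 or skn-1i replicate 2, 6, 6 and 7 members were called higher. In the heat-offset contrast 7 of 16 were higher and 0 lower (4 higher without hsf-1i (HS) replicate 1), with a median of 1.11 against −0.06 over all genes.

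**Figure D2:**
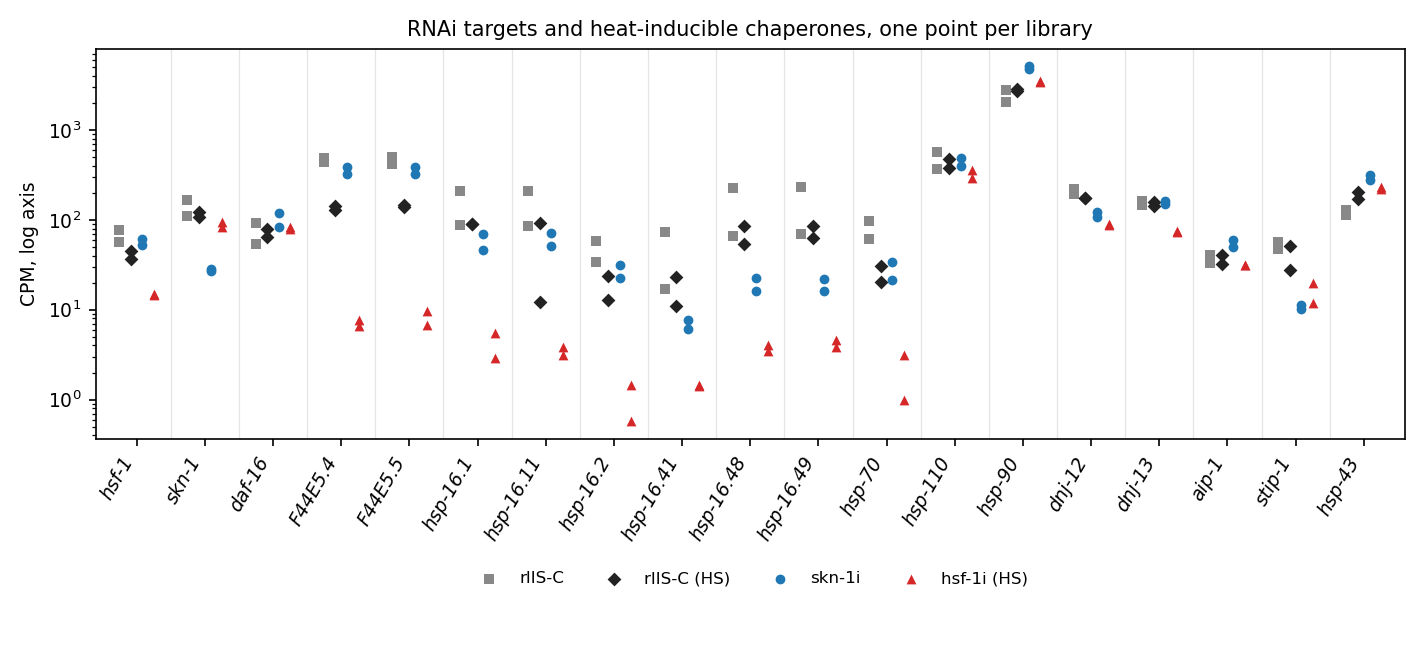
CPM on a log axis of the 3 RNAi targets and the 16 heat-inducible chaperones, with 1 point per library of rIIS-C, rIIS-C (HS), skn-1i and hsf-1i (HS). From F44E5.4 to hsp-70 both hsf-1i (HS) libraries lie below every other library, and skn-1i lies nearer the empty vector controls.

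Of 8 small heat shock proteins beyond the hsp-16 family, hsp-43 of the list above among them, 0 were higher and 2 were lower (25%, against 13.8% of all genes lower). The 2 were hsp-12.1 at 0.870 and 1.25 against 4.73 and 2.94 CPM and hsp-25 at 250 and 279 against 382 and 359 CPM. Their log2 fold changes of −1.81 (adjusted p = 0.0215 in edgeR) and −0.49 (adjusted p = 0.0282 in edgeR) did not pass without skn-1i replicate 1, skn-1i replicate 2 or hsf-1i (HS) replicate 1, at adjusted p in edgeR of 0.0671 to 0.177, and hsp-25 did not without hsf-1i (HS) replicate 2 either (adjusted p = 0.109 in edgeR). For the embryonic small heat shock protein sip-1 the values were 2132 and 2383 CPM in skn-1i and 1921 and 2042 in hsf-1i (HS), above the 648 to 1089 of the controls, and the groups compared did not differ by the test (log2 fold change 0.19, adjusted p = 0.555 in edgeR). Of the constitutive folding machinery 7 of 22 genes were higher and 3 lower (31.8% and 13.6%, against 9.04% and 13.8% of all genes), with a median of 0.33, and of 0.46 in the heat-offset contrast. Its chaperonin subunit cct-8 read 317 and 334 against 215 and 208 CPM (log2 fold change 0.62 ± 0.16, adjusted p = 0.0163 in edgeR). The prefoldin subunit pfd-4 went the other way, with 68.9 and 88.9 against 179 and 174 CPM (log2 fold change −1.16 ± 0.20, adjusted p = 0.00276 in edgeR), and so did the chaperone-linked ubiquitin ligase chn-1 at 18.3 and 18.6 against 36.1 and 35.7 CPM (log2 fold change −0.96 ± 0.14, adjusted p = 0.00104 in edgeR). The 7 higher calls of this list were reduced to 1, 0, 3 and 1 without hsf-1i (HS) replicate 1, hsf-1i (HS) replicate 2, skn-1i replicate 1 and skn-1i replicate 2, and that of cct-8 was lost in each case (adjusted p in edgeR of 0.0508 to 0.0853).

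Detoxification genes known as SKN-1 targets were lower in skn-1i. Of 16 tested, 9 were lower and 0 higher (56.2%, against 13.8% of all genes lower), with a median of −1.45. The glutathione S-transferase gene gst-4 (chromosome IV, 10142240 to 10143007), the standard reporter of SKN-1 activity, read 1.30 and 1.13 CPM in skn-1i and 16.9 and 20.4 in hsf-1i (HS), with 13 and 28.6 in rIIS-C and 30.2 and 28.8 in rIIS-C (HS). Both skn-1i libraries stood apart from the other 6, which overlapped across their groups. The log2 fold change was −3.95 ± 0.42 (adjusted p = 0.000228 in edgeR), and −3.49 in the heat-offset contrast (adjusted p = 0.00228 in edgeR). The nitrilase gene nit-1 read 5.44 and 7.15 CPM in skn-1i and 31.9 and 35.3 in hsf-1i (HS), where it was also above rIIS-C (HS) at 13.5 and 16.9. Its log2 fold changes were −2.39 ± 0.25 (adjusted p = 0.000224 in edgeR) between the groups and −2.10 in the heat-offset contrast (adjusted p = 0.00367 in edgeR).

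The next members were picked from the list after their values were seen. The transferase gst-10, which conjugates the lipid peroxidation product 4-hydroxynonenal, read 9.57 and 10.7 CPM in skn-1i and 50.1 and 51.7 in hsf-1i (HS), a log2 fold change of −2.32 ± 0.18 (adjusted p = 3.46e-05 in edgeR). For gst-13 the values were 13.9 and 15.8 against 38.8 and 42.7 CPM (log2 fold change −1.45 ± 0.20, adjusted p = 0.000792 in edgeR). Not every SKN-1 target followed. The gene of the rate-limiting enzyme of glutathione synthesis, gcs-1, read 50.5 and 48 CPM in skn-1i and 40.8 and 39 in hsf-1i (HS), both below their own controls of 65.9 to 86.9, and did not pass between the groups (log2 fold change 0.30, adjusted p = 0.194 in edgeR). Likewise gst-7 read 134 and 169 against 192 and 225 CPM (log2 fold change −0.46, adjusted p = 0.104 in edgeR). Offset for heat, 5 members were lower and 1 higher, with a median of −0.82, and without hsf-1i (HS) replicate 2 the direct count of 9 was 6 and the heat-offset count of 5 was 3.

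The SKN-1-dependent zygotic (sdz) and endomesoderm genes, which are switched on in early embryos, were mostly too low to test. Of 43 listed, 13 passed the filter on reads, and since a gene can pass through the group in which it is high, their direction is a description. Among these 13, 9 were lower in skn-1i and 0 higher, at a median of −2.26. For sdz-25 the reads came to 0.435 and 0.251 CPM in skn-1i and 4.01 and 3.86 in hsf-1i (HS), with 0.717 to 1.29 in the controls, a log2 fold change of −3.57 ± 0.51 (adjusted p = 0.000939 in edgeR). This gene was called higher in hsf-1i (HS) than in rIIS-C (HS), by 2.38 (adjusted p = 0.000823 in edgeR), and lower in skn-1i than in rIIS-C, at −1.82 (adjusted p = 0.0168 in edgeR). None of its exon reads (0%) was placed at 1 position only, so these values cannot be told apart from those of another locus. With each of the 4 libraries left out in turn, 3 or 4 were called lower.

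Among all glutathione S-transferases, 13 of 36 were lower and 2 higher (36.1%, against 13.8% of all genes lower), with a median of −0.49. Their heat-offset median was 0.14, with 4 lower and 2 higher (2 to 6 and 0 to 4 with 1 library left out), beside 8 of the 36 that were higher with heat shock on empty vector. Over all genes 6.56% were higher with heat shock on empty vector. The lowest of the transferases, gst-16, read 0.217 and 0.125 CPM in skn-1i and 3.72 and 4.78 in hsf-1i (HS) (log2 fold change −4.63 ± 0.83, adjusted p = 0.00325 in edgeR). In the other direction gst-44, an omega-class gene, read 5 and 4.39 against 1 and 0.92 CPM (log2 fold change 2.26 ± 0.39, adjusted p = 0.00267 in edgeR). The 13 lower calls became 8, 5, 7 and 12 without hsf-1i (HS) replicate 1, hsf-1i (HS) replicate 2, skn-1i replicate 1 and skn-1i replicate 2. UDP-glucuronosyltransferases, the next enzymes of conjugation, had 10 of 55 lower and 1 higher at a median of −0.15, a share near that of all genes, and 6 lower without hsf-1i (HS) replicate 1, skn-1i replicate 1 or skn-1i replicate 2. Of them, ugt-22 fell under both RNAi treatments from 77.1 and 82.6 CPM in rIIS-C to 2.61 and 2.26 in skn-1i, and from 79.2 and 82.9 in rIIS-C (HS) to 13.8 and 12.7 in hsf-1i (HS). The remaining difference of −2.46 ± 0.21 between the RNAi groups passed (adjusted p = 4.73e-05 in edgeR). Of the pgp and mrp drug transporters 5 of 21 were lower and 0 higher (23.8% lower, against 13.8% of all genes). Among them were pgp-11 at 2.39 and 2.51 against 6.45 and 5.89 CPM (log2 fold change −1.32 ± 0.24, adjusted p = 0.0034 in edgeR) and pgp-3 at 7.18 and 10 against 21.2 and 20.8 CPM (log2 fold change −1.26 ± 0.22, adjusted p = 0.00299 in edgeR). That count of 5 was 2, 3 and 2 without hsf-1i (HS) replicate 1, hsf-1i (HS) replicate 2 and skn-1i replicate 2.

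**Figure D3:**
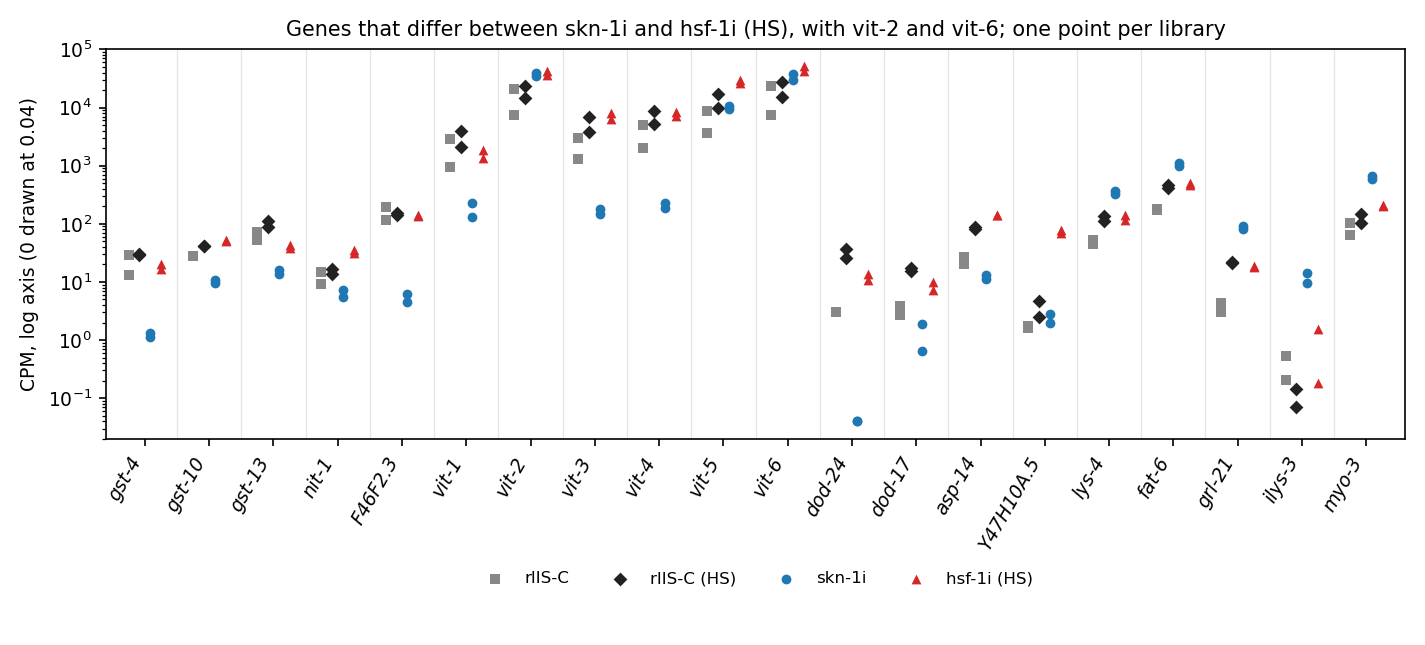
CPM on a log axis (0 drawn at 0.04) of 20 genes from the comparison of skn-1i with hsf-1i (HS), with 1 point per library of rIIS-C, rIIS-C (HS), skn-1i and hsf-1i (HS). The detoxification genes, vit-1, vit-3, vit-4 and the dod genes lie lower in skn-1i, and lys-4, fat-6, grl-21, ilys-3 and myo-3 lie higher, while vit-2 and vit-6 lie close together. The only muscle gene drawn is myo-3, and of 22 muscle genes 2 were called higher and 4 lower.

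Yolk protein genes differed strongly from one another. Vitellogenins are made in the adult intestine and taken up by oocytes. The near-identical copies vit-3 (chromosome X, 3567458 to 3572540) and vit-4 (3558893 to 3563965) summed to 406 and 338 CPM in skn-1i and 16407 and 13497 in hsf-1i (HS), against 8000 and 3321 in rIIS-C and 8966 and 15774 in rIIS-C (HS). The hsf-1i (HS) libraries lay within or just above the range of their control, and the skn-1i libraries lay below every other library. The log2 fold change was −5.33 ± 0.43 (adjusted p = 4.50e-05 in edgeR), and −4.20 ± 0.53 in the heat-offset contrast (adjusted p = 0.00111 in edgeR). Next, vit-1 read 224 and 130 against 1834 and 1375 CPM (log2 fold change −3.19 ± 0.48, adjusted p = 0.00139 in edgeR).

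The 3 most abundant vitellogenin genes behaved otherwise. For vit-5 the values were 10539 and 9389 CPM in skn-1i and 29185 and 26386 in hsf-1i (HS), a log2 fold change of −1.48 ± 0.36 (adjusted p = 0.0141 in edgeR) that did not pass when any 1 of the 4 libraries was left out (adjusted p in edgeR of 0.0549 to 0.085). The largest of the family, vit-2, read 39892 and 34830 against 41739 and 36759 CPM (log2 fold change −0.07 ± 0.37, adjusted p = 0.915 in edgeR). For vit-6 the values were 37920 and 29492 against 50775 and 42053 CPM (log2 fold change −0.46 ± 0.43, adjusted p = 0.47 in edgeR). In both RNAi groups vit-2 and vit-6 were above the rIIS-C and rIIS-C (HS) libraries. Vitellogenins share sequence, so reads can be split between members, but in reads that the authors placed at 1 position only, vit-3 still stood at 27.4 and 39.6 against 1119 and 1661 CPM and vit-2 at 29850 and 31953 against 31212 and 33489.

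Genes first found downstream of DAF-16 by microarray (dod genes) included the gene with the widest gap. For dod-24 (chromosome IV, 12940175 to 12941352), an innate immune response gene, no exon read was seen in either skn-1i library, whereas hsf-1i (HS) had 11 and 13.6 CPM, rIIS-C 3.06 and 3.10 and rIIS-C (HS) 25.6 and 36.8. With the floor of 3 counts over the group it was at least 51.6-fold lower in skn-1i (adjusted p = 3.44e-05 in edgeR). On empty vector it was also higher with heat shock, by 3.32 on the log2 scale. Then dod-17 read 0.652 and 1.88 against 9.89 and 7.17 CPM (log2 fold change −2.61 ± 0.37, adjusted p = 0.000919 in edgeR) and dod-23 read 43.5 and 52.2 against 156 and 171 CPM (log2 fold change −1.77 ± 0.21, adjusted p = 0.000371 in edgeR). Their heat-offset values of −0.22 and −0.74 did not pass (adjusted p = 0.831 and 0.117 in edgeR), the heat shock terms on empty vector being 2.39 and 1.03. Of 10 dod genes tested 5 were lower and 0 higher (50% lower, against 13.8% of all genes), with a median of −1.27. In the heat-offset contrast 1 was lower and 2 were higher, against 7.52% and 4.92% of all genes, with a median of 0.39.

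Lipid desaturation and fatty acid genes split between these patterns. The stearoyl-CoA desaturase fat-6 read 1001 and 1094 CPM in skn-1i and 473 and 504 in hsf-1i (HS), with 172 and 182 in rIIS-C and 460 and 410 in rIIS-C (HS). So hsf-1i (HS) sat close to its control and skn-1i far above its own. The log2 fold changes were 1.1 between the groups (± 0.14, adjusted p = 0.000552 in edgeR) and 2.39 in the heat-offset contrast (adjusted p = 7.24e-05 in edgeR). Its paralog fat-7 was low throughout, at 0.435 and 0 against 3.58 and 2.58 CPM (log2 fold change −4.18 ± 0.74, adjusted p = 0.00302 in edgeR), and the heat-offset value of −0.99 did not pass (adjusted p = 0.588 in edgeR). The acyl-CoA dehydrogenase acdh-1 read 0.435 and 1.38 against 6.30 and 4.23 CPM (log2 fold change −2.38 ± 0.38, adjusted p = 0.00181 in edgeR). It was below both controls, which had 10.3 to 56.5 CPM.

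Of 25 glycolysis and gluconeogenesis genes 10 were lower in skn-1i and 1 was higher (40% and 4%, against 13.8% and 9.04% of all genes), and 14 were not called, at a median of −0.37. Aldolase, aldo-1, read 391 and 467 CPM in skn-1i and 975 and 1128 in hsf-1i (HS), the phosphoenolpyruvate carboxykinase pck-1, an enzyme of glucose synthesis, read 477 and 538 against 1121 and 1234, and lactate dehydrogenase, ldh-1, read 108 and 124 against 242 and 267. No pair of groups overlapped, with log2 fold changes of −1.29 for aldo-1 (± 0.17, adjusted p = 0.000568 in edgeR), −1.21 for pck-1 (± 0.15, adjusted p = 0.000552 in edgeR) and −1.14 for ldh-1 (± 0.16, adjusted p = 0.000896 in edgeR). All 3 were above their own empty vector in both RNAi groups by the test, so the direction holds between the RNAi groups and not against the controls. The exception was the pyruvate kinase pyk-2 at 88.7 and 81.5 against 51 and 49.5 CPM (log2 fold change 0.76 ± 0.14, adjusted p = 0.00408 in edgeR). Leaving out any of the 4 libraries gave 8 or 9 lower calls. With the heat offset only 1 gene was lower and 2 were higher, against 7.52% and 4.92% of all genes, at a median of −0.05. With heat shock on empty vector 9 of the 25 were higher, against 6.56% of all genes.

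Oxidative phosphorylation genes had 10 of 43 lower and 1 higher (23.3% and 2.33%, against 13.8% and 9.04% of all genes), at a median of −0.30. The complex I subunits gas-1, at 235 and 250 against 444 and 470 CPM, and nuo-6, at 182 and 197 against 331 and 350 CPM, were lower, at log2 fold changes of −0.91 ± 0.14 (adjusted p = 0.00158 in edgeR) and −0.84 ± 0.15 (adjusted p = 0.00302 in edgeR). The count of 10 was 3, 3, 3 and 5 without hsf-1i (HS) replicate 1, hsf-1i (HS) replicate 2, skn-1i replicate 1 and skn-1i replicate 2, and 16 with the block. Their heat-offset median was 0.21, beside 15 of the 43 that were higher with heat shock on empty vector, against 6.56% of all genes.

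Short genes as a class were also lower in skn-1i, which touches the lists of short genes such as these. The eighth of the genes with the shortest exons (median 327 bp) had a median log2 fold change of −0.29, and the eighth with the longest (3240 bp) had 0.08. With that trend removed, 2308 genes were higher and 2182 lower, and oxidative phosphorylation had 11 of 43 lower and 2 higher. The heat shock label on empty vector went with a trend the other way, at medians of 0.33 and −0.36 in the same eighths.

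Intestinal genes moved in both directions. The microvillar actin gene act-5 read 961 and 971 against 2243 and 2203 CPM, and the apical proton pump subunit vha-6 read 831 and 802 against 1558 and 1471. They were lower in skn-1i, at log2 fold changes of −1.2 ± 0.18 (adjusted p = 0.00112 in edgeR) and −0.89 ± 0.18 (adjusted p = 0.00525 in edgeR). The cathepsin B-like protease cpr-1 read 2244 and 2729 against 1047 and 1097 CPM, with 180 to 225 in the controls, and was higher by 1.21 ± 0.17 (adjusted p = 0.000767 in edgeR). Of 13 intestinal markers 4 were lower and 2 higher, and 2 were lower without hsf-1i (HS) replicate 1, hsf-1i (HS) replicate 2 or skn-1i replicate 1. The 4 lower and 2 higher calls are 30.8% and 15.4% of these markers, against 13.8% and 9.04% of all genes. The aspartyl protease gene asp-14 read 11.1 and 13.4 CPM in skn-1i and 141 and 142 in hsf-1i (HS) (log2 fold change −3.51 ± 0.18, adjusted p = 1.92e-06 in edgeR), and its heat-offset value of −1.66 also passed (adjusted p = 0.00179 in edgeR).

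Immune effector genes differed in both directions. Of 12 lysozyme genes 4 were higher and 1 lower (33.3% and 8.33%, against 9.04% and 13.8% of all genes), with a median of 0.43. The gene lys-4 (chromosome IV, 11621496 to 11623098) read 327 and 369 CPM in skn-1i and 116 and 141 in hsf-1i (HS), with 44.3 and 52.7 in rIIS-C and 134 and 111 in rIIS-C (HS). The hsf-1i (HS) libraries overlapped their control and the skn-1i libraries lay above all others. Its log2 fold change was 1.44 ± 0.17 (adjusted p = 0.000395 in edgeR), and 2.77 in the heat-offset contrast (adjusted p = 8.42e-05 in edgeR). For lys-7 the means were 434 ± 59.7 CPM in skn-1i against 219 ± 13.5 in hsf-1i (HS) (SD, n = 2 libraries), over 38.2 to 49.9 CPM in the controls (log2 fold change 0.99 ± 0.17, adjusted p = 0.00298 in edgeR).

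Invertebrate-type lysozymes were rare transcripts here. The gene ilys-3, which digests bacteria in the pharynx and intestine, read 9.57 and 14.3 CPM in skn-1i and 1.58 and 0.184 in hsf-1i (HS) (log2 fold change 3.66 ± 0.58, adjusted p = 0.00174 in edgeR). For ilys-2 both hsf-1i (HS) libraries had no read and skn-1i had 1.96 and 2.13 CPM, at least 8.46-fold higher with the floor of 3 counts over the group (adjusted p = 0.00509 in edgeR). The 1 lower member, lys-2, read 180 and 208 against 330 and 351 CPM (log2 fold change −0.81 ± 0.14, adjusted p = 0.00298 in edgeR). Its heat-offset value turned to 1.12 (adjusted p = 0.00606 in edgeR), with rIIS-C (HS) at 678 and 658 CPM and rIIS-C at 188 and 163. In the heat-offset contrast 6 of the 12 lysozymes were higher and 0 lower, against 4.92% and 7.52% of all genes.

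Of 52 antimicrobial peptide, saposin and thaumatin genes 14 were higher and 4 lower (26.9% and 7.69%, against 9.04% and 13.8% of all genes), with a median of 0.50. The epidermal peptide gene nlp-29 read 20.9 and 20.8 against 6.02 and 3.50 CPM (log2 fold change 2.11 ± 0.39, adjusted p = 0.00362 in edgeR), and the caenacin gene cnc-4 read 13 and 19.8 against 2.72 and 3.13 (log2 fold change 2.49 ± 0.49, adjusted p = 0.0053 in edgeR). The call of cnc-4 was lost without hsf-1i (HS) replicate 1 or skn-1i replicate 2 (adjusted p = 0.0529 and 0.0524 in edgeR). The fungus-induced family member fipr-1, with 32.5% of its exon reads placed at 1 position, read 8.92 and 12 against 1.58 and 2.76 CPM (log2 fold change 2.32 ± 0.39, adjusted p = 0.00223 in edgeR). Against this direction the saposin-like gene spp-17 read 125 and 211 against 626 and 654 CPM (log2 fold change −1.92 ± 0.26, adjusted p = 0.000692 in edgeR). The 14 higher calls were 8, 7 and 4 without hsf-1i (HS) replicate 1, hsf-1i (HS) replicate 2 and skn-1i replicate 2.

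C-type lectins, many of them secreted sugar-binding proteins of the gut, had 26 of 107 lower and 8 higher (24.3% and 7.48%, against 13.8% and 9.04% of all genes) at a median of −0.29. Offset for heat they were 11 lower and 13 higher at a median of 0.16, against 7.52% and 4.92% of all genes. With heat shock on empty vector 26 of the 107 were higher, against 6.56% of all genes. The 11 were 7, 6 and 7 without hsf-1i (HS) replicate 1, hsf-1i (HS) replicate 2 and skn-1i replicate 2, and the 13 were 8 without skn-1i replicate 2. For clec-86 the values were 4.13 and 4.01 CPM in skn-1i and 20.2 and 22.4 in hsf-1i (HS), with 2.72 to 4.69 in the controls. This gene was close to its control in skn-1i and higher in hsf-1i (HS), at a log2 fold change of −2.39 ± 0.24 (adjusted p = 0.000162 in edgeR). For clec-209 they were 3.26 and 5.64 against 20.2 and 21.9 CPM (log2 fold change −2.17 ± 0.24, adjusted p = 0.000303 in edgeR), with 6.13 and 4.81 in rIIS-C and 34.3 and 43 in rIIS-C (HS), and a heat-offset value of 0.69 that did not pass (adjusted p = 0.204 in edgeR). None of the exon reads of clec-209 (0%) was placed at 1 position only, so they are shared with another locus. The 26 lower calls were 16 without hsf-1i (HS) replicate 1 and 16 without skn-1i replicate 2.

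Cuticle collagens separated the groups little in the direct comparison, with 10 of 160 higher and 9 lower (6.25% and 5.62%), fewer than among all genes. The heat-offset contrast called 51 higher and 5 lower, against 4.92% and 7.52% of all genes, with a median of 1.01 against −0.06 over all genes. The 51 became 80 without rIIS-C replicate 1, 43 to 50 without any other library, 70 with the block and 14 with all 14 libraries in the fit. Its terms stand beside it: 112 of 160 were higher in skn-1i than in rIIS-C, 81 were higher in hsf-1i (HS) than in rIIS-C (HS), and 62 were higher in rIIS-C (HS) than in rIIS-C. Over all genes these shares were 25.7%, 18.8% and 6.56%. For col-146 with col-147, which share reads, the sums were 1218 and 1677 CPM in skn-1i and 620 and 638 in hsf-1i (HS), against 103 and 91.4 in rIIS-C and 713 and 566 in rIIS-C (HS). The hsf-1i (HS) libraries fell within their control's range. The log2 fold changes were 1.2 between the groups (± 0.18, adjusted p = 0.0014 in edgeR) and 3.92 ± 0.27 in the heat-offset contrast (adjusted p = 2.13e-05 in edgeR). The other way, col-101 read 495 and 612 against 2938 and 2991 CPM (log2 fold change −2.42 ± 0.17, adjusted p = 1.54e-05 in edgeR), and it was lower than its control in skn-1i and higher than its control in hsf-1i (HS). Only 11.6% of its exon reads were placed at 1 position. Without hsf-1i (HS) replicate 2 or skn-1i replicate 2 the 10 higher calls were 4 and 5, and without hsf-1i (HS) replicate 1, hsf-1i (HS) replicate 2 or skn-1i replicate 1 the 9 lower ones were 4, 4 and 5.

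The hedgehog-related gene grl-21 read 81.5 and 91.9 CPM in skn-1i and 18.5 and 18 in hsf-1i (HS), with 3.06 and 4.34 in rIIS-C and 22 and 21.2 in rIIS-C (HS). The hsf-1i (HS) libraries lay just below their control and the skn-1i libraries above all others. Its log2 fold change was 2.25 ± 0.17 (adjusted p = 3.25e-05 in edgeR), and 4.72 in the heat-offset contrast (adjusted p = 1.13e-05 in edgeR).

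Genes that went opposite ways against their own controls were few, 126 of the 4253 called in both. In 56 skn-1i was higher and hsf-1i (HS) lower, and in 70 skn-1i was lower and hsf-1i (HS) higher. All 126 were also called in the heat-offset contrast, which combines both responses. Of the second kind, the chitinase gene cht-1 read 9.57 and 8.78 CPM in skn-1i against 21.3 and 23.1 in rIIS-C, and 28.4 and 28 in hsf-1i (HS) against 4.51 and 3.30 in rIIS-C (HS). It was thus below its own control in skn-1i and above its own control in hsf-1i (HS). The linker histone genes his-24, at 6.74 and 8.65 against 42.8 and 41.4 CPM, and hil-3, at 2.17 and 2.76 against 14 and 12.5 CPM, followed it, with heat-offset values of −3.52 ± 0.36 (adjusted p = 0.000279 in edgeR) and −3.65 ± 0.35 (adjusted p = 0.000161 in edgeR). So did the lectin gene clec-266 at 1.52 and 1.88 against 16 and 19.5 CPM (heat-offset −5.81, adjusted p = 0.000197 in edgeR) and the uncharacterised F18E3.11 at 3.91 and 4.77 against 48.6 and 47.5 CPM (heat-offset −3.55, adjusted p = 0.000458 in edgeR).

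Of the first kind, the cadmium-responsive gene cdr-4 read 47.6 and 57.1 CPM in skn-1i against 23.1 and 38.7 in rIIS-C, and 18.9 and 21.9 in hsf-1i (HS) against 135 and 115 in rIIS-C (HS). The heat-offset value was 3.36 (adjusted p = 0.000141 in edgeR) and the direct one 1.37 ± 0.23 (adjusted p = 0.00222 in edgeR). A collagen gene, col-149, had such a split without passing in the direct comparison: skn-1i at 68.1 and 79.6 CPM and hsf-1i (HS) at 84.2 and 76.9 overlapped, with a direct log2 fold change of −0.12 ± 0.17 (adjusted p = 0.631 in edgeR). Yet rIIS-C stood at 9.01 and 7.45 and rIIS-C (HS) at 169 and 138, which gives a heat-offset value of 4.12 (adjusted p = 1.13e-05 in edgeR). For C30G12.2 the values were 42 and 40.9 against 13.3 and 14.2 CPM, for F15B9.6 42 and 34.5 against 8.31 and 7.73, and for T19C9.8 11.1 and 12.8 against 2.15 and 0.552, all called higher in both contrasts.

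**Figure D4:**
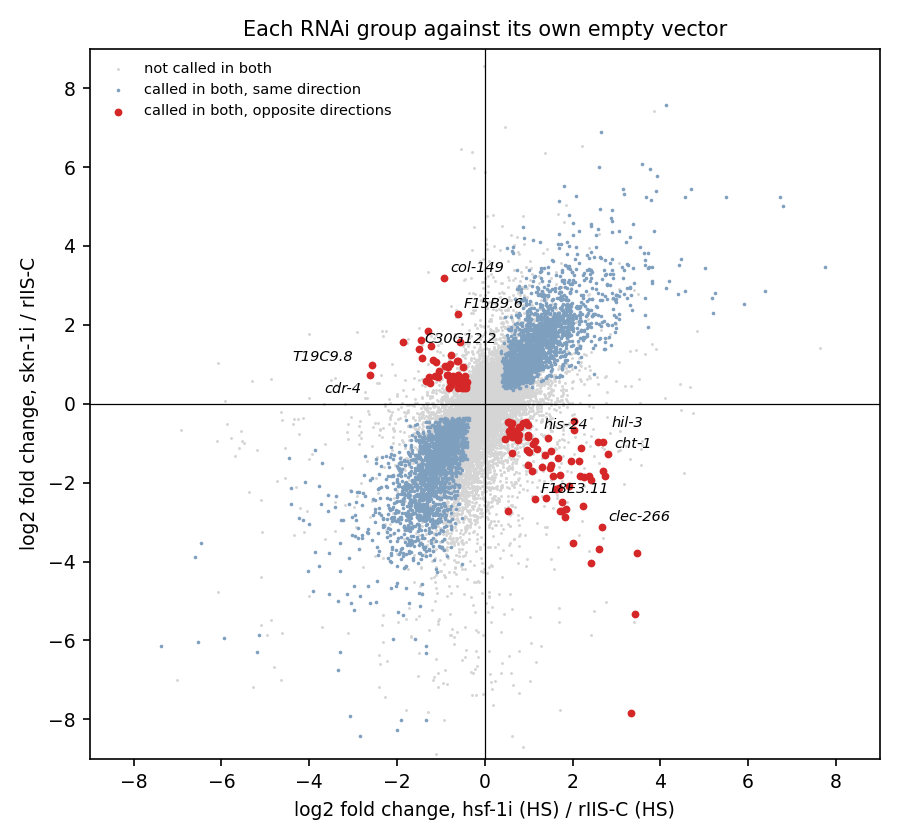
Log2 fold change of skn-1i over rIIS-C (vertical axis) against that of hsf-1i (HS) over rIIS-C (HS) (horizontal axis), 1 point per gene tested, with 4 genes outside the axes. Of the genes called in both, 97% lie in the upper right or lower left (blue) and 126 lie in the other corners (red), some of them labelled.

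Outside the lists, the wide gaps included genes of little described function. F46F2.3 (chromosome X, 15259754 to 15260251) read 4.57 and 6.27 CPM in skn-1i, against 141 and 136 in hsf-1i (HS), 195 and 116 in rIIS-C and 139 and 152 in rIIS-C (HS). Only skn-1i stood apart, and the log2 fold changes were −4.64 ± 0.30 (adjusted p = 8.43e-06 in edgeR) and −4.73 in the heat-offset contrast (adjusted p = 4.77e-05 in edgeR). Y47H10A.5 (chromosome I, 12095804 to 12097939) was the mirror case: 70.2 and 78 CPM in hsf-1i (HS), against 1.96 and 2.76 in skn-1i, 1.62 and 1.76 in rIIS-C and 2.50 and 4.73 in rIIS-C (HS). There hsf-1i (HS) stood apart (log2 fold change −4.92 ± 0.29, adjusted p = 4.8e-06 in edgeR, heat-offset −3.93, adjusted p = 0.000492 in edgeR). The gene sepa-1, whose protein brings P granule parts of the embryo to autophagy, read 2.17 and 0.502 against 11.7 and 15.8 CPM (log2 fold change −3.55 ± 0.46, adjusted p = 0.000562 in edgeR).

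On the higher side, Y94H6A.10 read 83.5 and 100 CPM in skn-1i and 17.3 and 11.4 in hsf-1i (HS), both below their controls of 129 to 281 (log2 fold change 2.67 ± 0.35, adjusted p = 0.000664 in edgeR). The nuclear hormone receptor gene nhr-17 read 38.3 and 52.1 against 10.9 and 10.7 CPM, and here skn-1i lay near its control of 47.2 and 74.5 while hsf-1i (HS) lay below its own of 94.1 and 59.8 (log2 fold change 2.07 ± 0.29, adjusted p = 0.000798 in edgeR). C08E3.1 was at 0 to 0.776 CPM in the controls and read 12 and 21.7 in skn-1i against 3.3 and 0.736 in hsf-1i (HS) (log2 fold change 3.01 ± 0.63, adjusted p = 0.00678 in edgeR), a call lost without hsf-1i (HS) replicate 2 or skn-1i replicate 2 (log2 fold changes 2.41 and 2.53). Only 31% of its exon reads were placed at 1 position.

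Of 22 muscle genes 2 were higher and 4 lower (9.09% and 18.2%, against 9.04% and 13.8% of all genes) at a median of −0.12. The genes named here are the 2 higher ones, so they run against most calls of the list, which reached down to −1.07. The body wall myosin myo-3 read 673 and 587 CPM in skn-1i and 210 and 203 in hsf-1i (HS) (log2 fold change 1.61 ± 0.24, adjusted p = 0.00113 in edgeR). Against their own empty vector, 17 of the 22 genes were higher under skn-1 RNAi and 16 under hsf-1 RNAi, and 17 were higher in rIIS-C (HS) than in rIIS-C. Over all genes these shares were 25.7%, 18.8% and 6.56%. The 4 lower calls were 2, 1 and 1 without hsf-1i (HS) replicate 1, hsf-1i (HS) replicate 2 and skn-1i replicate 1. Paramyosin, unc-15, read 3803 and 3347 against 2192 and 2119 CPM (log2 fold change 0.73 ± 0.20, adjusted p = 0.0237 in edgeR), a call lost without any 1 of the 4 libraries (adjusted p in edgeR of 0.0536 to 0.109). The heat-offset contrast called 9 muscle genes higher and 0 lower, and 4 higher without hsf-1i (HS) replicate 1, hsf-1i (HS) replicate 2 or skn-1i replicate 2. Over all genes that contrast called 4.92% higher and 7.52% lower. Neuronal genes had 1 of 30 higher and 2 lower in the direct comparison (3.33% and 6.67%, against 9.04% and 13.8% of all genes).

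Sperm genes were lower in skn-1i in 16 of 80 and higher in 2 (20% and 2.5%, against 13.8% and 9.04% of all genes), at a median of −0.52, and the block raised the 16 to 47. Their heat-offset median was 0.23, with 7 lower and 3 higher (14 and 25 with the block), against 7.52% and 4.92% of all genes. With heat shock on empty vector 30 of the 80 were higher, against 6.56% of all genes. These 7 and 3 ran from 3 to 10 and from 0 to 14 with 1 library left out, the 14 being without rIIS-C (HS) replicate 2. The paternally supplied embryonic factor spe-11 read 3.48 and 4.14 against 20.6 and 13.4 CPM (log2 fold change −2.15 ± 0.40, adjusted p = 0.0037 in edgeR), and spe-49 read 0.652 and 0.753 against 4.44 and 4.05 (log2 fold change −2.56 ± 0.45, adjusted p = 0.00295 in edgeR). Hermaphrodites make sperm before oocytes, and the study gives the harvest both as L4 to young adult and as young adult to gravid. Of 12 adult-stage markers 4 were lower and 0 higher (33.3% lower, against 13.8% of all genes). The 4 are the yolk genes vit-1, vit-3, vit-4 and vit-5 described above, and 3 were lower with near-identical copies summed. A part of stage in the sperm gene result was not tested. The count of 16 was 7 without hsf-1i (HS) replicate 2 and 9 without skn-1i replicate 1. Of 36 oocyte and germline genes 4 were higher (11.1%, near the 9.04% of all genes) and 0 lower, with a median of 0.39 that was 0.07 in the heat-offset contrast, and 14 were higher with the block. Among them were egg-2, an egg surface protein needed at fertilization, at 137 and 123 against 68.5 and 70.1 CPM (log2 fold change 0.91 ± 0.19, adjusted p = 0.00658 in edgeR), and spn-4, a maternal RNA-binding protein, at 419 and 377 against 212 and 229 (log2 fold change 0.85 ± 0.18, adjusted p = 0.00737 in edgeR).

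Genes of DNA replication and the cell cycle had 10 of 47 higher and 1 lower (21.3% and 2.13%, against 9.04% and 13.8% of all genes) at a median of 0.21. The origin recognition complex genes orc-1, at 86.1 and 77.8 against 42.8 and 40.3 CPM, and orc-5, at 70.7 and 78.5 against 43.3 and 44.3 CPM, were higher by 0.98 ± 0.20 (adjusted p = 0.00563 in edgeR) and 0.77 ± 0.14 (adjusted p = 0.0034 in edgeR). Their heat-offset median was 0.08, near the −0.06 of all genes. The 10 direct calls were 4, 3, 5 and 5 without hsf-1i (HS) replicate 1, hsf-1i (HS) replicate 2, skn-1i replicate 1 and skn-1i replicate 2. Of 32 genes of the RNA interference machinery, on which both treatments rely, 6 were higher and 2 lower, and 3 were higher without hsf-1i (HS) replicate 2. The 6 higher and 2 lower calls are 18.8% and 6.25% of these genes, against 9.04% and 13.8% of all genes. The transposon-silencing genes mut-2, at 77 and 74.9 against 31.4 and 34.8 CPM, and mut-7, at 92.4 and 97.2 against 45.8 and 47.5 CPM, were higher by 1.2 ± 0.15 (adjusted p = 0.000476 in edgeR) and 1.02 ± 0.21 (adjusted p = 0.00589 in edgeR).

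Mitochondrial ribosomal proteins had 14 of 70 higher and 11 lower (20% and 15.7%, against 9.04% and 13.8% of all genes). The lower share was near that of all genes, while both shares of their cytosolic counterparts were smaller (2.47% and 1.23%). The 14 became 20 with the library sheet's numbers as a block and 32 with the exon length trend removed. Of the higher ones, mrpl-50 read 60.5 and 71.2 against 35.8 and 37.2 CPM (log2 fold change 0.86 ± 0.14, adjusted p = 0.00198 in edgeR). For mrps-18A the values were 6.09 and 9.28 CPM in skn-1i and 26.2 and 30.4 in hsf-1i (HS), and for mrpl-13 they were 8.05 and 11 against 28.7 and 31.5. Both lay below their own controls in both RNAi groups, and skn-1i was the lower, at log2 fold changes of −1.84 ± 0.26 (adjusted p = 0.00094 in edgeR) and −1.63 ± 0.24 (adjusted p = 0.00125 in edgeR). The 14 higher calls were 3 without hsf-1i (HS) replicate 1, 3 without hsf-1i (HS) replicate 2 and 3 without skn-1i replicate 2, and the 11 lower ones were 6, 6, 7 and 7 in the order hsf-1i (HS) replicates 1 and 2 and skn-1i replicates 1 and 2.

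**Figure D5:**
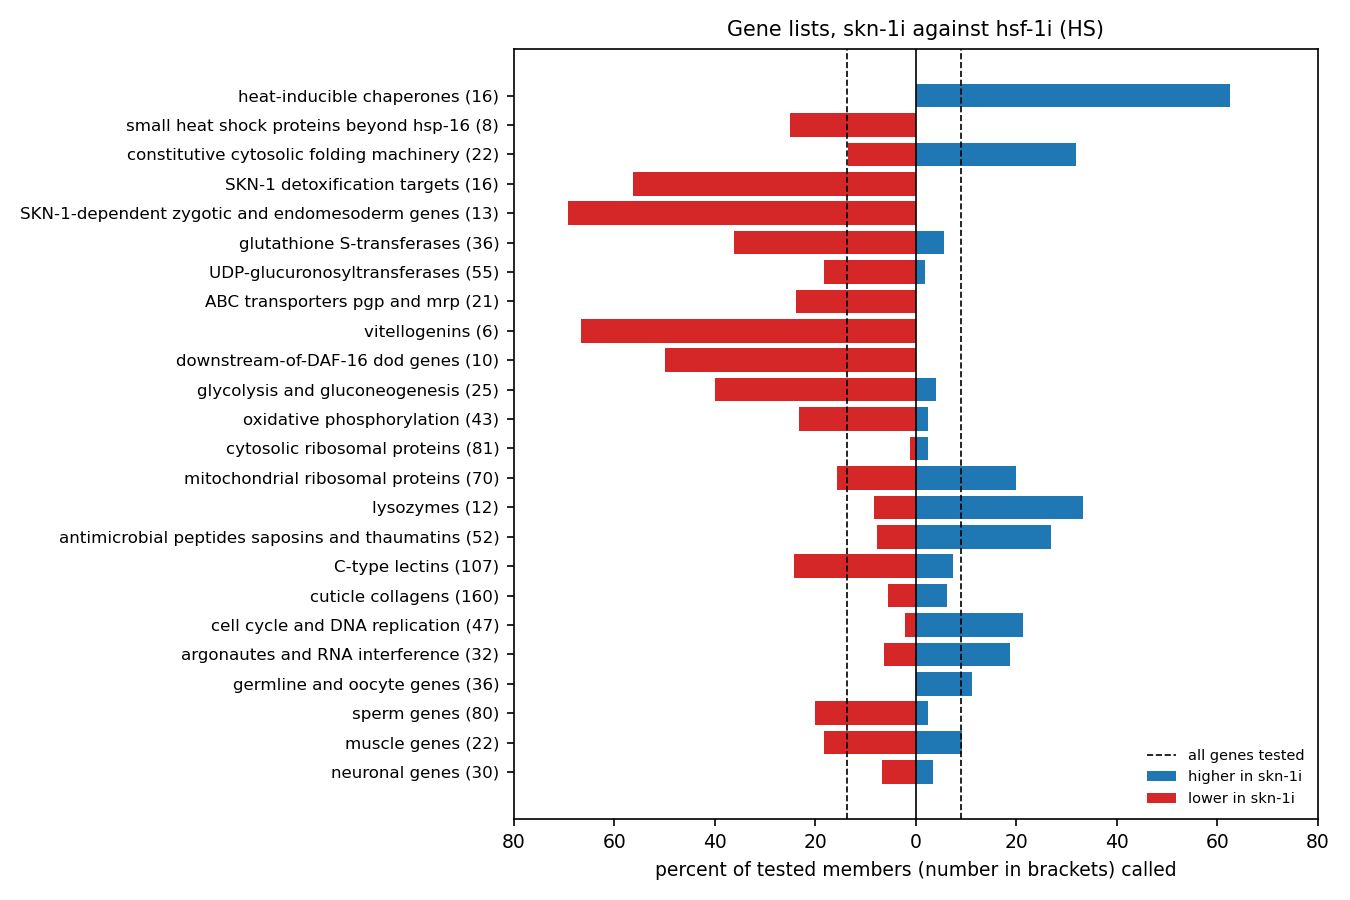
Percent of the tested members of 24 gene lists (their number in brackets) called higher (right, blue) or lower (left, red) in skn-1i than in hsf-1i (HS), with dashed lines at 9.04% and 13.8%, the shares of all genes tested. Heat-inducible chaperones reach 62.5% on the right, with near-identical copies counted as separate genes. SKN-1 detoxification targets reach 56.2% on the left, and cytosolic ribosomal proteins stay close to 0.

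Genes that the study follows for each factor gave a mixed picture between these groups. The superoxide dismutase gene sod-3, a DAF-16 target, read 13 and 17.6 against 26.1 and 31.1 CPM (log2 fold change −0.88 ± 0.24, adjusted p = 0.0252 in edgeR), a call lost without hsf-1i (HS) replicate 1, hsf-1i (HS) replicate 2 or skn-1i replicate 1 (adjusted p in edgeR of 0.0813 to 0.18). The drug transporter gene pgp-9 read 39.6 and 38.1 CPM in skn-1i and 37.7 and 41.4 in hsf-1i (HS), and these overlapped (log2 fold change −0.02 ± 0.18, adjusted p = 0.942 in edgeR). Its heat-offset value was 1.77 (adjusted p = 0.00192 in edgeR), since rIIS-C had 32.6 and 22.3 and rIIS-C (HS) 95.9 and 91.8. The acyl-CoA synthetase-like gene sur-5 had a like form, 41.1 and 42.5 against 54.4 and 49.1 CPM (log2 fold change −0.31, adjusted p = 0.167 in edgeR) and a heat-offset value of 0.98 (adjusted p = 0.0139 in edgeR, lost without hsf-1i (HS) replicate 2 or skn-1i replicate 2 at 0.0523 and 0.0562). The TGF-beta ligand gene daf-7 was near the floor at 1.09 and 1 against 2.29 and 2.58 CPM and did not pass (log2 fold change −1.22, adjusted p = 0.102 in edgeR). Neither did asm-3, an acid sphingomyelinase gene, at 4.13 and 4.14 against 6.16 and 6.44 CPM (adjusted p = 0.276 in edgeR), nor rpc-2 at 107 and 81.8 against 83.8 and 75.8 CPM (adjusted p = 0.589 in edgeR).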

How the data were processed

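RNA of whole worms was sequenced from 14 libraries, 2 in each of 7 groups. The authors called bases with CASAVA 1.8.2 and mapped and counted single-end reads per gene in CLC Genomics Workbench on WBcel235, from an unstranded kit, so overlapping and antisense genes cannot be told apart. The deposited counts are raw exon reads per gene, not normalized, and the deposited RPKM values are the authors' own, per kilobase of exon and per mapped library. A further 4 value columns matched no sample and were not used. The main test was edgeR 4.0.16 (R 4.3.3), quasi-likelihood, on the exon counts of 12 libraries (all but C (HS)), with filterByExpr, TMM factors, a coefficient for each of 6 groups and Benjamini-Hochberg adjustment over 13892 genes. Alternatives were DESeq2 1.42.0, RLE factors, no filter, other sets of libraries, both replicate numberings as a block, limma 3.58.1 on log2(RPKM + 1) for genes with a mean of at least 1, ribosomal RNA left out, an exon length trend removed and each library left out, and, added after seeing the data, copies summed. Scripts were tested on simulated data.

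The replicate numbers of the study's library sheet, matched to the libraries by their gene reads, pair the samples: deviations of same-numbered libraries from their group means correlated in all 15 pairs of groups (0.152 to 0.450). The label numbers did not (−0.450 to 0.376) and run opposite to the sheet in 5 of 7 groups. In the 12 libraries fitted, the sheet's numbers coincide with the split in junction reads. These were 9.39% to 9.89% of exon reads for number 2 and 22.57% to 26.34% for number 1. The main test left this pairing out. Its common dispersion was 0.0275, against 0.0133 with the sheet's numbers as a block. Genes named are the 12 largest changes per direction among called genes with a group mean of at least 10 CPM, up to 3 called members per list and direction, all members of lists of up to 8, the 6 largest heat-offset values per direction among genes called oppositely, the RNAi targets and genes followed by the study. Outside that rule, gst-7, gst-10, gst-13, gcs-1 and the chaperones beyond the leading ones were chosen after their values were seen. Members and all 49 lists were chosen with earlier results of these data known.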

Additional observations from a re-analysis of the deposited data

How the results depend on the processing

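With all libraries in place, RLE factors, DESeq2, no low-count filter, the label numbers as a replicate block, ribosomal RNA left out and copies summed kept every count over all genes within 1.5 times its main value. The library sheet's numbers as a replicate block gave 1987 genes higher in the direct comparison, and 1253 higher and 1701 lower in the heat-offset contrast. The exon length trend removed gave 2308 higher directly and 1601 higher in the heat-offset contrast. All 14 libraries in the fit gave 424 higher and 1028 lower directly, and 139 and 339 in the heat-offset contrast, and the 8 libraries of that contrast alone gave 264 and 388. With limma on log2(RPKM + 1) 1056 were lower directly, 1615 were lower at the study's thresholds, and 255 were higher and 667 lower in the heat-offset contrast, which is 27.7% higher against 39.6%, 29.1% with all 14 libraries and 53.7% with the length trend removed. The cause of these shifts was not tested. Leaving out 1 library at a time gave 465 to 718 higher and 784 to 1030 lower directly, 304 to 1188 higher and 381 to 1507 lower in the heat-offset contrast, and 1357 to 1512 higher and 1971 to 2332 lower at the study's thresholds.

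Of 108 genes named, 90 were called directly and 70 kept the call in every setting that gave a value, with 0 reversed. The call was lost with all 14 libraries for pgp-3, acdh-1, col-146, col-147, orc-5, cct-8, unc-15, hsp-25 and sod-3, with limma for pgp-11, spe-49, hsp-25 and sod-3, and for hsp-25 also without the filter and with the length trend removed, and DESeq2 gave no adjusted p for ilys-2. In the heat-offset contrast 61 were called, 37 kept the call and 0 reversed. The replicate block of the library sheet ended no call of a named gene.

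With 2 libraries a group, spread rests on few samples, and the low reads of the sdz, sperm and peptide genes limit what can be seen of them.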
